A study of Mus musculus with 30 samples.

Results

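Sgk2, Kng2, Cend1, Slco4a1, Fam131c, Mfsd2a, Ankrd9 and Car14 are 8 of the 21652 genes in the deposited table. They were chosen by symbol because earlier results of these data showed them high in brown adipose tissue (BAT) at 22 °C and strongly raised in inguinal white adipose tissue (iWAT) by cold. Values of iWAT in the cold against 22 °C, and of BAT against iWAT, therefore chose the genes and are given as a description, without a test. All 8 passed the filter on low counts in the iWAT, the BAT and the joint fit. In the iWAT fit, Fam131c (9 counts in all at 22 °C and 47 at 6 h) and Slco4a1 (22 and 245) passed only through the 24 h libraries, where they were high. Their values from that fit are read with this limit. Car14 went against the description: its iWAT libraries at 24 h and at 22 °C overlapped, and its log2 difference was 0.98 ± 0.75 (± approximate standard error), so it is followed as a gene that was high in BAT and whose difference in cold iWAT (1.97-fold at 24 h and 2.56-fold at 6 h) was not called.

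The study sequenced polyadenylated RNA of both depots from male C57BL/6J mice aged 7 to 8 weeks, caged in groups of 5. Each depot was sampled in 3 groups of 5 libraries: one from mice kept at 22 °C, one 6 h into exposure to 6 °C and one 24 h into it. The housing notes give a room at 24 ± 2 °C, and the labels name no mutation, transgene or drug in any group. Nothing in the labels says that the 5 libraries of a group came from separate mice, so p-values measure the spread between libraries.

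Brown adipocytes burn fuel for heat through Ucp1, the uncoupling protein of the inner mitochondrial membrane. In the cold, noradrenaline from sympathetic nerves acts through cyclic AMP to raise Ucp1 and its partner genes. Inguinal white fat holds adipocytes that switch on much of the same programme in the cold, known as beige or brite cells. The genes described here lie outside the heat-producing machinery itself. Sgk2 encodes a kinase of the serum- and glucocorticoid-regulated family, activated downstream of phosphoinositide 3-kinase. Kng2 encodes a kininogen, the precursor from which kallikreins release bradykinin. Slco4a1 is an organic anion transporter that carries thyroid hormones, and Mfsd2a takes up lysophosphatidylcholine carrying docosahexaenoic acid. Ankrd9 is a substrate receptor of cullin ubiquitin ligases, known from human cells to target the nucleotide synthesis enzyme IMPDH. Car14 is a membrane-bound carbonic anhydrase with its active site outside the cell, and Cend1 promotes cell cycle exit and differentiation in neurons.

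The promoters of 5 genes are shown. Kng2, Slco4a1 (at its downstream start), Fam131c and Mfsd2a were higher in cold iWAT and hold a nuclear receptor site. Car14 was not clearly higher and holds none. Cend1 and Ankrd9, also higher in cold iWAT, hold none either. The site thus did not divide the genes by their response to cold, and a link between them was not tested. RefSeq promoter windows on GRCm38.p6, reaching from 250 bases before to 50 after a start, were matched for 7 of the 8 genes with 9 starts. The windows are chr16:23029052-23029351 on the minus strand for Kng2, chr2:180460728-180461027 on the plus strand for the downstream start of Slco4a1, chr4:141367942-141368241 on the plus strand for Fam131c, chr4:122961139-122961438 on the minus strand for Mfsd2a and chr3:95904636-95904935 on the minus strand for Car14. Each is written 5′ to 3′ along the gene. Capitals mark AGGTCA, the single site of nuclear receptors, CCAAT, the CCAAT box, and TGACG, the core of the cyclic AMP response element, on either strand, so that TGACCT and ATTGG are the first of these and the CCAAT box read on the other strand.
Kng2: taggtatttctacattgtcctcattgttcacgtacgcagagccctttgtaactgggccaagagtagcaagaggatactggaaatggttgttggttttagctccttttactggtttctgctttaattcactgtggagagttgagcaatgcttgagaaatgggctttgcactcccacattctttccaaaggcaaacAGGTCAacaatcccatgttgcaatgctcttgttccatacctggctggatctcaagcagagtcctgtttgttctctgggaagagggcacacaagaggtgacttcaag
Slco4a1: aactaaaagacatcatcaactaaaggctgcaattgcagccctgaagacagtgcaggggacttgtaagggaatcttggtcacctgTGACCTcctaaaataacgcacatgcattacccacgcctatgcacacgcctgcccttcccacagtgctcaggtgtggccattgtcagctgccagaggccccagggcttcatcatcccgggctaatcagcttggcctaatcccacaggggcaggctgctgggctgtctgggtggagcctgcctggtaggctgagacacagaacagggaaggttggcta
Fam131c: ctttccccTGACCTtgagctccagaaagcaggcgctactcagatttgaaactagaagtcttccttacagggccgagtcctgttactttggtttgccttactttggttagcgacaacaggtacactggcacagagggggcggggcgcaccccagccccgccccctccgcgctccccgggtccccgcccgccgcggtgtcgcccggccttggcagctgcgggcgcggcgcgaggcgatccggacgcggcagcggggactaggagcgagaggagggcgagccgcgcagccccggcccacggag
Mfsd2a: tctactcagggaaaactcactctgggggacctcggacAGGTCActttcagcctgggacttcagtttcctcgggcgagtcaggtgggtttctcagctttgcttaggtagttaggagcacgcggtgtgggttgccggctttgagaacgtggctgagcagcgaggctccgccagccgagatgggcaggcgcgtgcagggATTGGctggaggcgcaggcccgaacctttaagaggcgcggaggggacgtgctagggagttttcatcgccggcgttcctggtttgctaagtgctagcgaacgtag
Car14: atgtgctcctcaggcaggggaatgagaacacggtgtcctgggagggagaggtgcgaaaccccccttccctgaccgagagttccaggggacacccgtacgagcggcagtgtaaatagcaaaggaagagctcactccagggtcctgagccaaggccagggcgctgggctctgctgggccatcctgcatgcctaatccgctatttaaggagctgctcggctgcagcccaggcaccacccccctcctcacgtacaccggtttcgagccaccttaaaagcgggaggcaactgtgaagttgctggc
AGGTCA lay in 4 of the 9 windows, in 1 window of each of 4 genes, against 16.3% of the 32851 promoters in the table. Counted in bases from the start, it began at -56 in Kng2, -166 in Slco4a1, -242 in Fam131c and -213 in Mfsd2a. In Fam131c the same stretch extends to TCAAGGTCA, the element of estrogen-related receptors, which overlaps AGGTCA and which 0.423% of all promoters hold. CCAAT lay in 5 of the 9 windows (Cend1, the upstream start of Slco4a1, Mfsd2a and both of Ankrd9), against 37.4% of all promoters, and TGACG in 2, both of Ankrd9 (20.8%). GGGCGG, the GC box, lay in 4 of the 9 (the upstream start of Slco4a1, Fam131c and both of Ankrd9), against 35.7%. No member window held TGACGTCA, the full cyclic AMP response element (1.79% of all promoters), the direct repeat of AGGTCA with 1 base between (0.0396%), CACGTG, the E-box (7.15%), or TATAAA, the TATA box (13.6%). Both strands were searched, the windows are short, and a missing match says only that these letters are not in them.

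The 30 libraries held 25.3 to 41 M assigned counts (M, 1e6). Markers of classical brown fat (3: Zic1, Lhx8 and Mpzl2) summed to 11.8 to 24.9 CPM (counts per 1e6 counts, with TMM-scaled library sizes) in iWAT at 22 °C, 24.3 to 54.8 CPM at 6 h and 21.5 to 37.1 CPM at 24 h, and to 95.4 to 140 CPM in the 15 BAT libraries. Most of that sum was Mpzl2, which rose in cold iWAT (log2 1.1 ± 0.25 at 6 h and 0.8 ± 0.24 at 24 h, adjusted p = 0.00792 and 0.0278 by edgeR). The positional gene Zic1 was at 0 to 0.0276 CPM in the 15 iWAT libraries and at 0 in all 5 at 24 h, against 8.69 to 28.6 CPM in BAT, and Lhx8 was at 1.24 to 4.45 CPM in iWAT and 1.62 to 7.82 CPM in BAT. Positional genes of inguinal fat (3) summed to 90.6 to 124 CPM in iWAT and to 1.24 to 15.1 CPM in BAT. The summed level of 6 fat cell markers in iWAT was 9880 to 13600 CPM at 22 °C, 9050 to 22400 CPM at 6 h and 8470 to 12900 CPM at 24 h. Progenitor cell genes (6) summed to 759 to 1720 CPM at 22 °C, 535 to 1060 CPM at 6 h and 565 to 1170 CPM at 24 h. In the same order of times, the sums were 277 to 551, 256 to 335 and 299 to 372 CPM for 6 endothelial genes and 122 to 273, 107 to 188 and 122 to 220 CPM for 5 macrophage genes. At 6 h and 24 h edgeR called 3 and 4 of the endothelial genes lower (adjusted p under 0.05). For macrophage genes these counts were 3 and 0, and for progenitor genes 3 and 1. None of these was called higher, and 10.1% of all genes were called lower at each time. Of the fat cell markers, 1 was called higher at 6 h and 1 lower at 24 h. Skeletal muscle genes (7) summed to 3600 CPM in iWAT 22 °C library 2, against 40 to 95.2 CPM in the other 14 iWAT libraries, and to 53.5 to 8200 CPM in BAT. In bulk tissue, fewer cells of a type and less RNA per cell cannot be told apart, and the part of these markers in the results was not tested.

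In iWAT at 24 h, 7 of the 8 genes had every library above every 22 °C library, as did 10.4% of the 13689 genes tested. Those 7 were also among the genes called higher at 24 h (edgeR's quasi-likelihood test at an adjusted p under 0.05), as were 12.8% of all genes, and the choice of genes fixes both counts. At 6 h, 3 of the 8 (Cend1, Mfsd2a and Ankrd9) had every library above every 22 °C library, as did 5.27% of all genes, and 6 of the 8, all but Fam131c and Car14, were called higher, as were 12.9%. Of all genes tested in both fits, 1485 (10.8%) were called higher both in BAT at 22 °C and in iWAT at 24 h, 176 (1.29%) by a log2 of 1 or more in each, and 53 (0.387%) by 2 or more. Car14 was in none of these sets and the other 7 were in all 3. The choice of genes bears on the 6 h counts and on these sets as well, so they are a description.

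Sgk2 (ENSMUSG00000017868) came closest of the 8 to its BAT level. Its 5 iWAT libraries at 24 h had 15.3, 9.47, 9.49, 14.9 and 17.7 CPM, against 0, 0, 0.183, 0.482 and 0 CPM at 22 °C. The 3 libraries at 0 had no read of the gene, so its fitted log2 difference of 6.76 ± 1.09 rests on 26 counts at 22 °C and was 8.05 without library 4 of that group. At 6 h the libraries spread over 0.254, 1.75, 0.442, 9.1 and 13.3 CPM, 3 of them nearer to the 22 °C level and 2 near the 24 h level. In BAT at 22 °C the libraries held 16.4, 29.8, 17.2, 12.1 and 15.7 CPM. Of the 5 iWAT libraries at 24 h, 3 lay within that range and 2 below it. The iWAT 24 h mean was 73.2 ± 20.3% of the BAT 22 °C mean (SD, n = 5), with single libraries at 51.9 to 96.9%.

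Kng2 (ENSMUSG00000060459) had the widest gap between the depots at 22 °C, while at 6 h and 24 h that of Car14 was wider (log2 6.08 and 6.78 for Car14, against 5.39 and 4.37 for Kng2). Its iWAT libraries held 9.49, 8.25, 8.55, 12.2 and 20.8 CPM at 24 h, against 0.507, 0.392, 0.467, 0.369 and 0.387 CPM at 22 °C. The BAT libraries at 22 °C held 117 to 178 CPM with a median of 122, so that all cold iWAT libraries stayed far below them. The share of the BAT level was 8.7 ± 3.84% at 24 h and 0.311 ± 0.0437% at 22 °C, and the log2 difference in iWAT at 24 h was 4.77 ± 0.84. The paralog Kng1 had 0 or 1 counts in each iWAT library and 1 to 11 in each BAT library. Reads that match both genes were not examined.

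Among the transporters, Slco4a1 (ENSMUSG00000038963) held 5.68, 2.63, 3.6, 3.33 and 4.04 CPM in iWAT at 24 h, against 0.0563, 0.157, 0.102, 0.0567 and 0.122 CPM at 22 °C. That put it at 31.6 ± 9.35% of the BAT level at 24 h and 0.81 ± 0.355% at 22 °C (log2 difference 5.23 ± 0.86). Mfsd2a (ENSMUSG00000028655) was higher than at 22 °C at both times. It averaged 0.581 ± 0.331 CPM at 22 °C, 5.76 ± 6.27 CPM at 6 h and 4.67 ± 1.06 CPM at 24 h, and neither cold group overlapped with 22 °C. One 6 h library, number 5, stood at 16.6 CPM while the other 4 lay at 1.71 to 5.66. The share of the BAT level was 18.8 ± 20.5% at 6 h and 15.3 ± 3.47% at 24 h. Without library 5 the 6 h mean was 3.05 ± 1.86 CPM, or 9.97 ± 6.07% of the BAT level (SD, n = 4).

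Cend1 (ENSMUSG00000060240) held 6.26, 3.45, 4.72, 5.51 and 6.81 CPM in iWAT at 24 h, against 0, 0.235, 0.285, 0.369 and 0.0814 CPM at 22 °C. Its 6 h libraries, at 0.911 to 6.5 CPM, were already all above 22 °C. It reached 50.4 ± 12.5% of the BAT level at 24 h (log2 difference 4.82 ± 0.65).

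Fam131c (ENSMUSG00000006218), whose function is little known, was higher at 24 h than at 6 h in every library. Its iWAT libraries held 1.64, 1.8, 1.68, 1.54 and 3.72 CPM at 24 h, against 0, 0.0875, 0, 0.753 and 0.57 CPM at 6 h. At 22 °C, 3 libraries had no read and the other 2 had 8 and 1 counts, so the log2 difference of 5.59 ± 1.02 between 24 h and 22 °C rests on 9 counts at 22 °C, and it was 7.85 without the library of 8 counts, number 3. The share of the BAT level was 39.0 ± 17.3% at 24 h and 5.3 ± 6.66% at 6 h.

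Ankrd9 (ENSMUSG00000037904) was the gene of the 8 with the highest iWAT level at 22 °C per gene length, at 1.59 ± 0.881 FPKM (fragments per kilobase and per 1e6). It held 21.2, 14.9, 11.7, 14.7 and 20.6 CPM at 24 h, against 1.28, 2.98, 5.91, 6.86 and 2.64 CPM at 22 °C, and its 6 h libraries spanned 6.87 to 34.3 CPM. The lowest 6 h library stood just above the highest at 22 °C. Its share of the BAT level was 20.3 ± 5.02% at 24 h and 4.81 ± 2.87% at 22 °C, with a log2 difference of 2.07 ± 0.46.

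Car14 (ENSMUSG00000038526) had 0.836, 0.629, 0.94, 0.136 and 0.566 CPM in iWAT at 24 h, against 0.113, 0.942, 0.244, 0.227 and 0.061 CPM at 22 °C. The 22 °C library at 0.942 CPM is number 2, the one rich in muscle transcripts. Without it the log2 difference was 1.93, which was not called either, and the part of muscle transcripts in this was not tested. The 24 h mean was 1.21 ± 0.605% of the BAT level, and all 15 iWAT libraries lay at or below 1.79 CPM, against 40.6 to 61.8 CPM in BAT at 22 °C. Exons of Car14 overlap those of Aph1a on the opposite strand, and the sources do not say whether reads were counted by strand, so reads of the 2 genes in the overlap cannot be told apart.

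**Figure D1:**
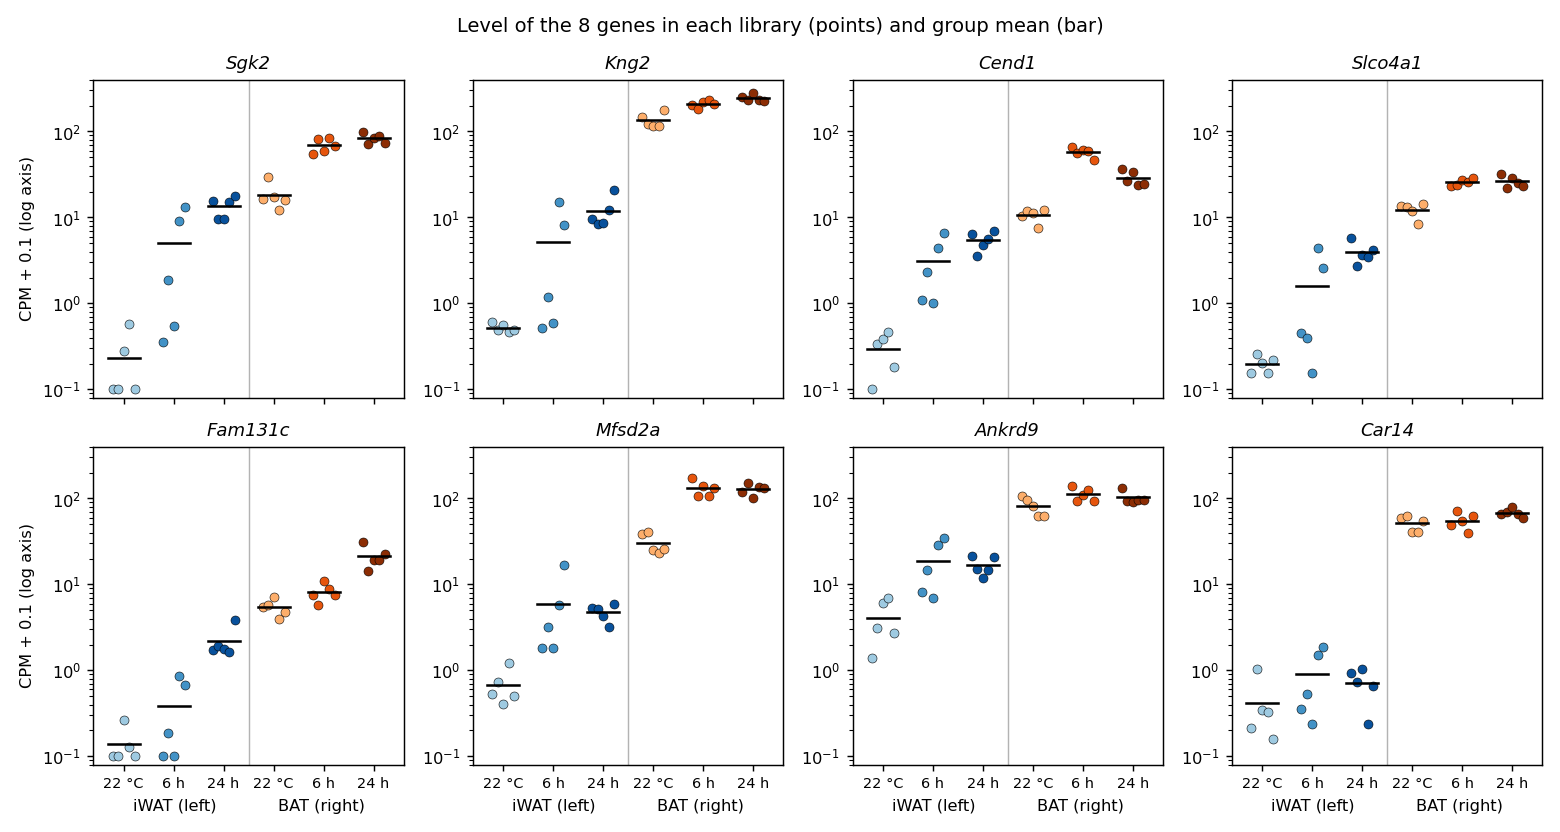
CPM + 0.1 on a log axis (y) in the 5 libraries of each group (x), iWAT left and BAT right of the line in each panel, with bars at group means. The 6 h iWAT libraries of Sgk2, Kng2 and Slco4a1 split between the 22 °C and the 24 h level, Car14 stays below 2 CPM in iWAT, and the BAT libraries lie close together.

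Libraries of iWAT were less even at 22 °C and 6 h than at 24 h for most genes. Across the 8, the coefficient of variation was 14.1 to 185% at 22 °C, 66.9 to 129% at 6 h and 22.7 to 50% at 24 h. For Sgk2, Fam131c and Car14 it was larger at 22 °C than at 6 h (158, 185 and 113%, against 119, 126 and 92.4% at 6 h), and for the other 5 it was smaller. Over the 5 libraries at 22 °C these 3 genes had only 26, 9 and 65 counts, so counting noise adds to their values. For all 8 genes, libraries 4 and 5 were the highest 2 at 6 h, and these libraries also held the most Ucp1, with 4010 and 4400 CPM against 599, 1710 and 453 CPM in libraries 1, 2 and 3. Between 24 h and 6 h none of the 8 genes was called in iWAT, on libraries that took part in the choice of the genes. Of all 13689 genes, 0.00731% (1 gene) was called by edgeR, 1351 had an unadjusted p under 0.05 and DESeq2 called 122. Fam131c had the largest difference of the 8, a log2 of 2.89 ± 0.84 (adjusted p = 0.265 by edgeR). It passed the filter in iWAT only through the 24 h libraries, so this difference is a description. In a fit of all 30 libraries it was called (2.88, adjusted p = 0.0164), as in limma on log2(FPKM + 1) (1.13, adjusted p = 0.0229). Sgk2 (1.43 ± 0.77), Slco4a1 (1.37 ± 0.67), Kng2 (1.25 ± 0.69) and Cend1 (0.84 ± 0.52) had positive differences that missed the threshold, and those of Mfsd2a (-0.3 ± 0.51), Ankrd9 (-0.15 ± 0.44) and Car14 (-0.38 ± 0.72) were negative and missed it too. Without 6 h library 5 that of Mfsd2a was 0.63 (adjusted p = 0.617).

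**Figure D2:**
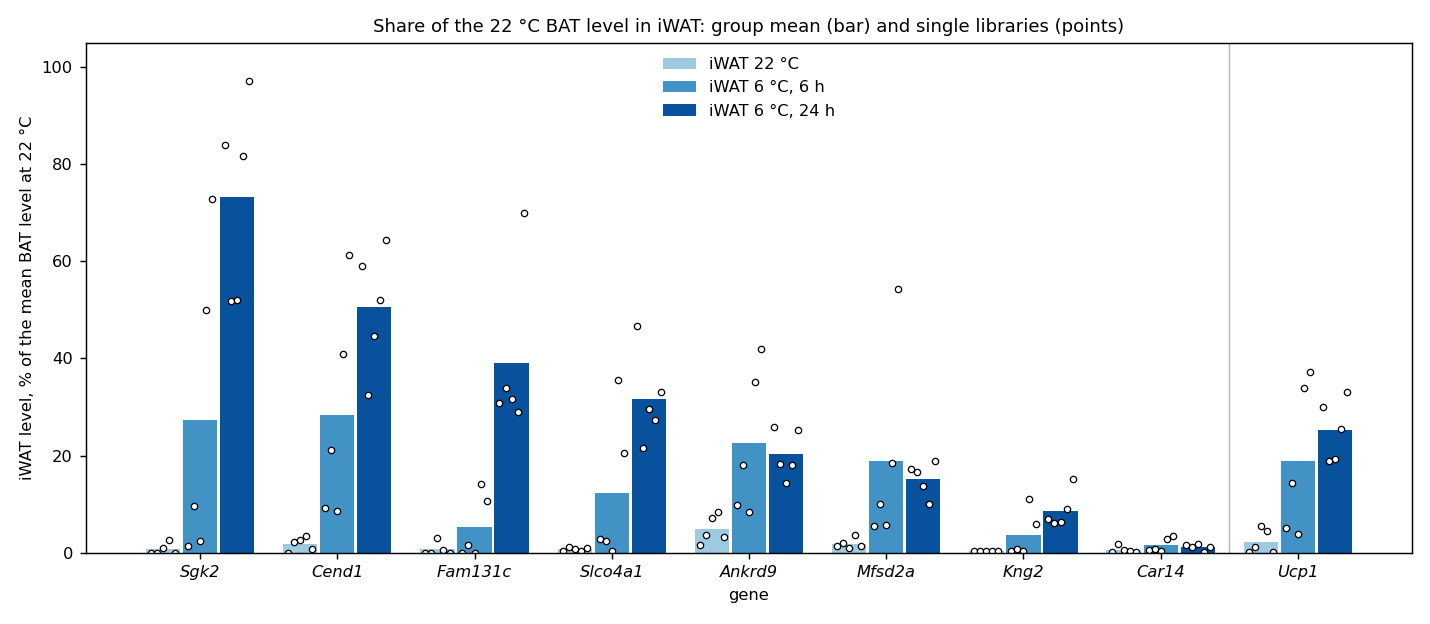
Level in iWAT as a percentage of the mean BAT level at 22 °C (y) for each gene (x), with bars at the means of 5 libraries at 22 °C, 6 h and 24 h and points for single libraries. Sgk2 at 73.2% and Cend1 at 50.4% lie above Ucp1 at 25.4% at 24 h, and Car14 at 1.21% lies near 0.

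By these shares the 8 genes differed widely from each other. The median share over the 8 was 0.77% at 22 °C, 15.6% at 6 h and 26.0% at 24 h. Ucp1 itself reached 25.4 ± 6.28%, and a list of 24 genes of brown and beige fat (Ucp1 among them) had a median of 9.2% at 22 °C, 26.7% at 6 h and 38.5% at 24 h. As a wider background, 114 genes were called higher in BAT at 22 °C by a log2 of 4 or more, the 8 genes included, and their median share at 24 h was 10.6% (quartiles 2.22 and 23.7%). Of these 114, 9 exceeded 50%. Sgk2 had a larger share than all but 4 of them and Cend1 than all but 7, followed by Fam131c (15 above it), Slco4a1 (18), Ankrd9 (30), Mfsd2a (45), Kng2 (60) and Car14 (86). The 8 were chosen for their rise in cold iWAT and the 114 were not. The ranks and the median of the 8 against the 114 thus follow in part from that choice. Set against BAT after the same 24 h of cold, the shares were lower, at 16.0% for Sgk2, 18.5% for Cend1, 16.2% for Ankrd9, 14.7% for Slco4a1, 9.77% for Fam131c, 4.84% for Kng2, 3.65% for Mfsd2a and 0.914% for Car14.

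These shares depend on how the depots are scaled. On the deposited FPKM, which are divided by each library's total, the median share over the 8 genes at 24 h was 34.9%, with Sgk2 at 98.1%, Cend1 at 67.8% and Car14 at 1.63%. The median log2 difference of all genes between BAT and iWAT at 22 °C was -0.043 by TMM scaling and as low as -0.576 on log2(FPKM + 0.1). The order of the genes by level per length also differed between depots. In iWAT at 24 h it ran Ankrd9 (6.05 ± 1.4 FPKM), Kng2 (5.01 ± 2.2), Sgk2 (4.51 ± 1.21), Cend1 (3.48 ± 0.842), Mfsd2a (2.39 ± 0.52), Fam131c (1.67 ± 0.738), Slco4a1 (0.927 ± 0.264) and Car14 (0.283 ± 0.146). Counting means whose SD ranges overlap as not separated, Slco4a1 and Car14 were the one pair of neighbours in this order that was separated. In BAT at 22 °C it ran Kng2 (42.8 ± 7.8 FPKM), Ankrd9 (22.2 ± 5.31), Car14 (17.4 ± 3.3), Mfsd2a (11.7 ± 3.02), Cend1 (5.13 ± 0.886), Sgk2 (4.59 ± 1.72), Fam131c (3.19 ± 0.686) and Slco4a1 (2.18 ± 0.397). There Kng2 was separated from Ankrd9 and Mfsd2a from Cend1, and the other neighbours overlapped. At 22 °C the log2 difference of BAT over iWAT was 8.3 ± 0.7 for Kng2, 7.42 ± 0.5 for Car14, 7.23 ± 0.83 for Sgk2, 6.93 ± 0.68 for Fam131c, 6.91 ± 0.64 for Slco4a1, 5.85 ± 0.49 for Cend1, 5.77 ± 0.49 for Mfsd2a and 4.39 ± 0.4 for Ankrd9, and 5.45 ± 0.77 for Ucp1. All 8 were among the 32.4% of genes called higher in BAT, which the choice of genes fixes. The order of these differences is not firm. Leaving out 1 iWAT library put Fam131c at 9.13 (without 3), Sgk2 at 8.48 (without 4) and Car14 at 8.33 (without 2), and on log2(FPKM + 1) the 8 differences were 1.62 (Slco4a1) to 5.17 (Kng2), with Fam131c at 2.0, Sgk2 at 2.37 and Car14 at 3.97.

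The cold libraries of BAT took no part in the choice of the genes, while the BAT libraries at 22 °C, with which they are compared, did. The comparison of BAT at 24 h with 6 h used none of the libraries of the choice. In BAT, 6 of the 8 genes rose at 6 h, where 12.5% of the 13090 genes tested did, and 6 rose at 24 h, where 12.8% did. None fell, which for 8 genes is near the share of all genes that did, 10.2% at 6 h and 10.4% at 24 h. The median log2 fold change of the 8 was 0.83 at 6 h and 1.26 at 24 h, against -0.01 for all genes at each time. The 2 comparisons share the 22 °C libraries. The sums of 7 skeletal muscle markers in these BAT libraries were 323 to 8200 CPM at 22 °C, 88.1 to 1610 CPM at 6 h and 53.5 to 4350 CPM at 24 h, and 1 of the 7 was called lower at 6 h and none at 24 h. In BAT at 24 h, 2 of 5 macrophage markers were called higher (Cd163, 0.9 ± 0.2, and Cd68, 0.69 ± 0.2), and the sums of the 5 were 52.3 to 91.6 CPM at 22 °C, 49.5 to 84.9 CPM at 6 h and 72.7 to 130 CPM at 24 h. Of 6 fat cell markers 2 were called lower at 24 h (Adipoq, -0.53 ± 0.15, and Lep, -1.72 ± 0.44), with sums of 2440 to 3480, 2380 to 3270 and 2390 to 3290 CPM in the same order of times. The progenitor marker Ly6a (0.73 ± 0.21, 1 of 6 called) and the endothelial Pecam1 (0.36 ± 0.09) were called higher at 24 h, and 1 of the other 5 endothelial markers was called lower. The part of these markers in the result was not tested.

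Cend1 had the largest rise at 6 h. Its BAT libraries held 66.7, 55.9, 61.4, 59.6 and 47 CPM at 6 h, against 10.2, 11.8, 11.3, 7.47 and 12.2 CPM at 22 °C. The groups lay far apart, with a log2 fold change of 2.44 ± 0.15 (edgeR's quasi-likelihood test, adjusted p = 1.37e-07). At 24 h it held 36.7, 26.6, 33.8, 23.6 and 24.2 CPM, still above every 22 °C library (1.43 ± 0.15, adjusted p = 5.02e-06) and below every 6 h library (24 h against 6 h, -1.01 ± 0.14, adjusted p = 0.000306).

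Fam131c took the opposite course. It held 5.36, 5.66, 6.96, 3.9 and 4.7 CPM in BAT at 22 °C, 7.52, 5.74, 10.8, 8.79 and 7.41 CPM at 6 h, and 30.7, 14.4, 19.1, 19.2 and 22.7 CPM at 24 h. All 24 h libraries lay above all others. The 24 h rise was 1.98 ± 0.2 over 22 °C (adjusted p = 5.44e-06) and 1.4 ± 0.2 over 6 h (adjusted p = 0.000337), and both held in each fit with 1 library left out. The 6 h groups overlapped with 22 °C, and the small rise there (0.58 ± 0.2, adjusted p = 0.0468) was lost when any of 8 of the 10 libraries was left out. Those were 22 °C libraries 1, 2, 4 and 5 and 6 h libraries 1, 3, 4 and 5, with adjusted p of 0.0543 to 0.142. Among all genes, 6.6% were called higher and 6.45% lower at 24 h than at 6 h in BAT. Of the 8, Fam131c was called higher, Cend1 lower (adjusted p = 0.051 in a fit of all 30 libraries) and the other 6 neither, with log2 differences of -0.12 to 0.29.

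Sgk2, Mfsd2a and Slco4a1 rose at both times. Sgk2 held 12.1 to 29.8 CPM at 22 °C, 55.3 to 83.4 CPM at 6 h and 72.2 to 98 CPM at 24 h (log2 fold change 1.92 ± 0.2 at 6 h and 2.18 ± 0.2 at 24 h, adjusted p = 7.14e-06 and 1.81e-06). Mfsd2a held 23.4 to 40.5 CPM at 22 °C, 106 to 173 CPM at 6 h and 101 to 153 CPM at 24 h (2.09 ± 0.18 and 2.05 ± 0.18, adjusted p = 1.42e-06 and 1.31e-06). For Slco4a1 the levels at these times were 8.36 to 14.3, 23 to 28.4 and 22 to 31.9 CPM (1.06 ± 0.13 and 1.09 ± 0.13, adjusted p = 3.91e-05 and 2.58e-05). None of these groups overlapped with its 22 °C group. Kng2 rose less, with 117 to 178 CPM at 22 °C, 182 to 234 CPM at 6 h and 229 to 278 CPM at 24 h (0.6 ± 0.11 and 0.83 ± 0.11, adjusted p = 0.000826 and 5.07e-05). In a fit of all 30 libraries the calls of Kng2 (adjusted p = 0.399 at 6 h and 0.226 at 24 h) and Slco4a1 (0.0724 and 0.0658) were lost while their fold changes stayed as they were.

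Ankrd9 and Car14 overlapped between cold and 22 °C and did not pass the test. Ankrd9 averaged 81.8 ± 20.1 CPM at 22 °C, 112 ± 20.0 CPM at 6 h and 103 ± 17.3 CPM at 24 h (0.43 ± 0.16 and 0.31 ± 0.16, adjusted p = 0.0573 and 0.17). The 6 h difference passed without 22 °C library 1 (adjusted p = 0.0197) or 2 (0.0452) or without 6 h library 2 (0.0451), and also by DESeq2 (0.0204). Car14 averaged 51.4 ± 10.2 CPM at 22 °C, 55.3 ± 11.8 CPM at 6 h and 68.0 ± 7.25 CPM at 24 h (0.09 ± 0.15 and 0.39 ± 0.15, adjusted p = 0.706 and 0.0743), and the 24 h difference passed without 22 °C library 2 (0.0456) and by DESeq2 (0.0354). Ucp1, already at 11900 ± 1310 CPM at 22 °C, was at 16900 ± 2740 CPM at 6 h (0.5 ± 0.1, adjusted p = 0.00172) and at 14400 ± 1080 CPM at 24 h (0.26 ± 0.1, adjusted p = 0.0672).

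**Figure D3:**
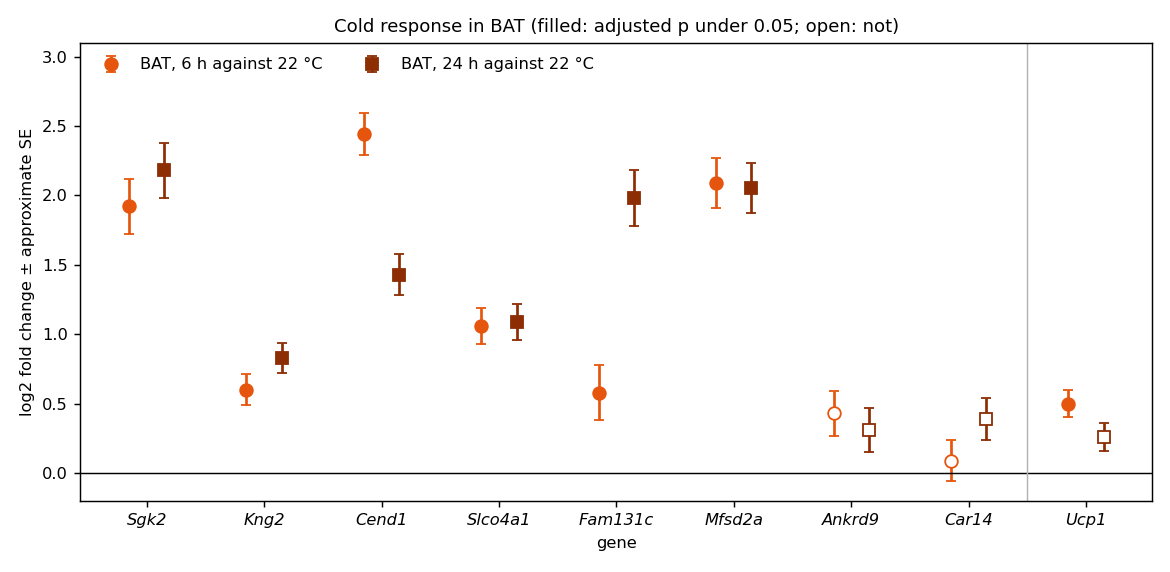
Log2 fold change in BAT with its approximate standard error (y) for each gene (x), after 6 h (circles) and 24 h (squares) at 6 °C against 22 °C, 5 libraries a group. Cend1 is highest at 6 h (2.44) and lower at 24 h (1.43), Fam131c goes the other way (0.58 and 1.98), and Ankrd9 and Car14 have open symbols at both times.

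Whether a library with more Ucp1 than its group also held more of a gene was tested within groups, which the choice of the genes did not use. In iWAT the slope of log2 level on Ucp1's log2 CPM, with group as a factor, was positive for all 8 genes and called for 4, against 0.789% of the 13688 genes tested. Of 24 listed genes of brown and beige fat, 23 were tested, without Ucp1 itself, and 14 were called. Such slopes were thus not particular to the 8 genes. Sgk2 rose by 1.59 ± 0.13 log2 units per log2 unit of Ucp1 (adjusted p = 4.93e-06 by edgeR), Fam131c by 1.78 ± 0.22 (0.000771), Cend1 by 0.67 ± 0.11 (0.00648) and Ankrd9 by 0.38 ± 0.07 (0.0171). Fam131c and Slco4a1 were in this fit only through the 24 h libraries, where they were high. Slopes that missed the threshold were 0.57 ± 0.23 for Slco4a1 (adjusted p = 0.299), 0.54 ± 0.2 for Car14 (0.246), 0.49 ± 0.22 for Kng2 (0.336) and 0.37 ± 0.13 for Mfsd2a (0.208). The call of Ankrd9 was lost without 22 °C library 1 (adjusted p = 0.0516) or 4 (0.0632) or without 6 h library 3 (0.0527), and Mfsd2a passed without 22 °C library 3 (slope 0.51, adjusted p = 0.0455). With the replicate number as a block, the call of Cend1 was lost (slope 0.58, adjusted p = 0.0666 by edgeR). On log2(FPKM + 1) by limma none of the 8 slopes was called, and on log2(FPKM + 0.1) those of Cend1 and Ankrd9 were. The slopes were also smaller on these scales, at 0.2 and 0.48 for Sgk2 and 0.07 and 0.32 for Fam131c.

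Over the 15 iWAT libraries, deviations of log2(CPM + 0.1) from the group means followed those of Ucp1 most closely for Cend1 (Pearson r = 0.82, permutation p = 0.00179, and Spearman rho = 0.92, p = 5e-05) and Ankrd9 (r = 0.82, p = 0.00336, and rho = 0.88, p = 0.00079). Sgk2 (r = 0.74, permutation p = 0.00258, and rho = 0.85, p = 0.00173) and Fam131c (r = 0.66, p = 0.00396, and rho = 0.74, p = 0.008) came next. Without the 2 libraries farthest from the median of Ucp1, r was 0.95, 0.96, 0.88 and 0.71 for these 4. For Car14, Mfsd2a, Kng2 and Slco4a1 r was 0.57, 0.52, 0.46 and 0.43 (permutation p = 0.0435, 0.0576, 0.0337 and 0.0872), and 0.60, 0.80, 0.63 and 0.64 without those 2 libraries. For the same 4 genes rho was 0.59, 0.55, 0.46 and 0.49 (permutation p = 0.0384, 0.0599, 0.0647 and 0.0723). With p adjusted over all genes, no permutation p passed (0.12 to 0.398 for r and 0.0717 to 0.396 for rho over the 8 in iWAT), out of 16 relations in both depots.

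At 22 °C Ucp1 was at 28.8, 138, 653, 523 and 9.01 CPM, a range of 72.4-fold, while Kng2 moved over a range of 1.38-fold and Slco4a1 over 2.79-fold. These rest on 13 to 27 counts of Kng2 and 2 to 6 of Slco4a1 in each library. At so few counts a lack of coupling at 22 °C cannot be read from Slco4a1. At 6 h Ucp1 ranged over 9.73-fold, Kng2 over 36.6-fold and Slco4a1 over 78.5-fold. With the cold libraries alone, an alternative added after the data were seen, 7 of the 8 slopes were called, among them Kng2 (1.55, adjusted p = 0.00118), Slco4a1 (1.41, 0.0068) and Mfsd2a (0.85, 0.0116), and 239 of all genes were called.

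**Figure D4:**
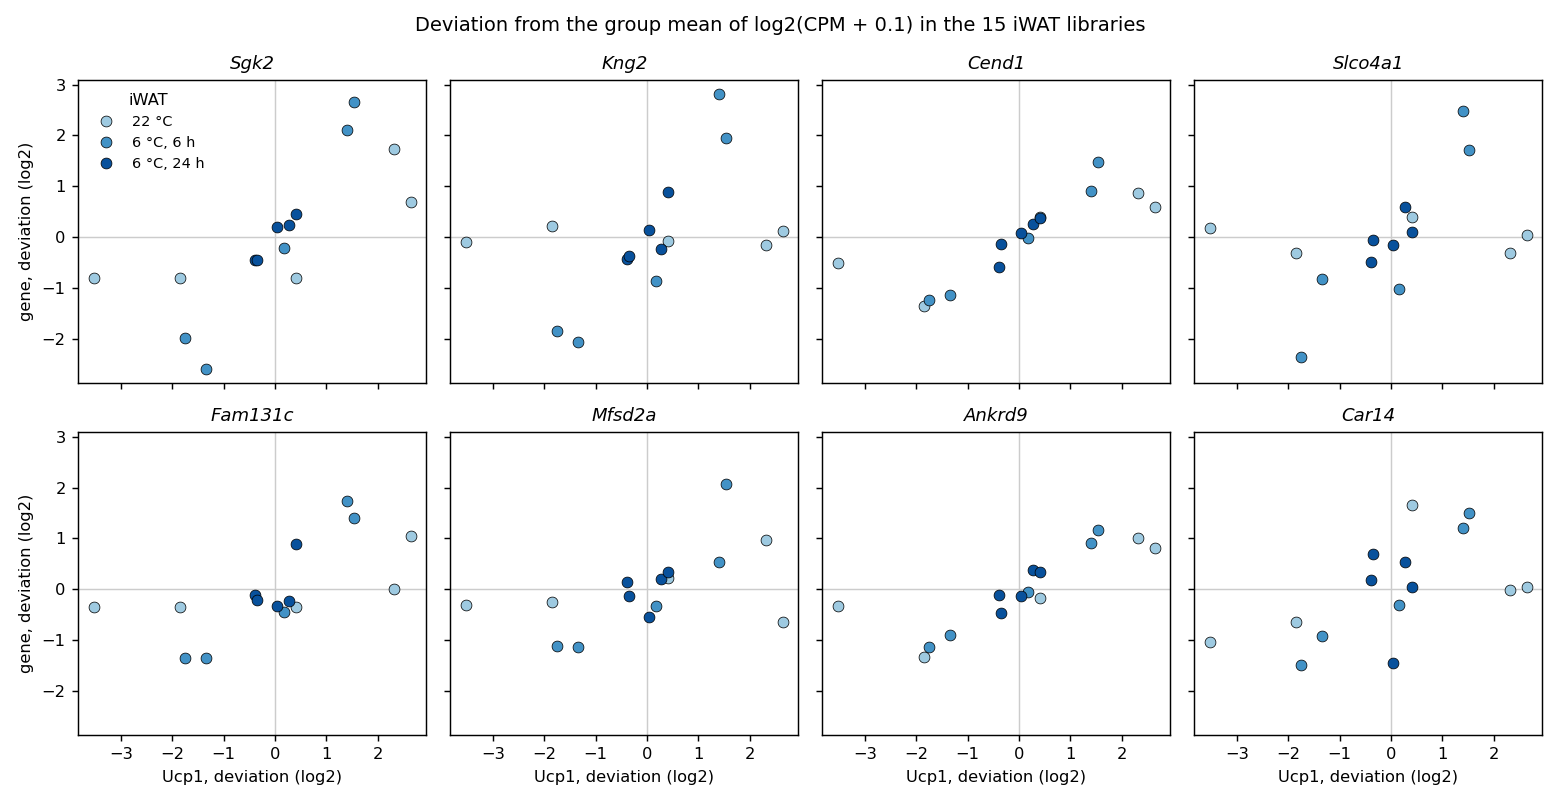
Deviation of each gene from its group mean (y, log2(CPM + 0.1)) against that of Ucp1 (x) in the 15 iWAT libraries, coloured by group. Cend1 and Ankrd9 (r = 0.82) rise with Ucp1 in all 3 groups, while the 22 °C points of Kng2 and Slco4a1 stay flat across Ucp1. Those of Slco4a1 rest on 2 to 6 counts a library, near the added 0.1 CPM, which flattens them.

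The level of each gene was also set against that of Ucp1 in the same library. Sgk2 stood at 4.41 ± 0.31 CPM per 1000 CPM of Ucp1 in iWAT at 24 h, a range of 4.14 to 4.91, against 1.52 ± 0.438 in BAT at 22 °C, and at 5.78 ± 0.379 in BAT at 24 h. Kng2 had 3.89 ± 0.955 in iWAT at 24 h, against 11.6 ± 2.09 in BAT at 22 °C. Cend1 (1.78 ± 0.187 and 0.89 ± 0.0961), Slco4a1 (1.3 ± 0.269 and 1.02 ± 0.117) and Fam131c (0.691 ± 0.204 and 0.448 ± 0.0799) averaged more per Ucp1 in iWAT at 24 h than in BAT at 22 °C, and the libraries of Slco4a1 (1.03 to 1.6 and 0.866 to 1.18) and Fam131c (0.462 to 0.951 and 0.387 to 0.587) overlapped. Against BAT at the same 24 h they averaged less, since BAT then stood at 2.0 ± 0.291 for Cend1, 1.81 ± 0.153 for Slco4a1 and 1.46 ± 0.331 for Fam131c. The libraries of Cend1 overlapped there (1.54 to 2.06 in iWAT and 1.65 to 2.31 in BAT). Ankrd9 (5.57 ± 0.731 and 6.86 ± 1.26), Mfsd2a (1.61 ± 0.461 and 2.56 ± 0.479) and Car14 (0.223 ± 0.138 and 4.32 ± 0.538) averaged less in iWAT at 24 h than in BAT at 22 °C, with overlap for Ankrd9 and Mfsd2a.

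In BAT, Ucp1 itself varied little within groups. The SD of its log2 CPM was 0.17 at 22 °C, 0.22 at 6 h and 0.11 at 24 h, against 2.66, 1.52 and 0.36 in iWAT. None of the 8 slopes was called in BAT (edgeR), where 0.00764% of genes (1) had a called positive slope and 1980 had an unadjusted p under 0.05 in either direction. The largest slopes were those of Ankrd9 (1.24 ± 0.3, adjusted p = 0.211) and Cend1 (1.04 ± 0.3, adjusted p = 0.234). The correlations of their deviations were near those in iWAT, with r = 0.76 (permutation p = 0.00165, adjusted 0.224) and rho = 0.75 (p = 0.00324) for Ankrd9 and r = 0.73 (p = 0.00198, adjusted 0.235) and rho = 0.76 (p = 0.00184) for Cend1, and r of 0.69 and 0.63 without the 2 libraries farthest from the median of Ucp1. For the other 6 genes r was -0.05 to 0.47 (permutation p = 0.0739 to 0.882) and rho -0.06 to 0.51 (p = 0.0621 to 0.864). Without BAT 22 °C library 4, Ankrd9 was called (adjusted p = 0.048) along with 1171 genes in all. Among themselves, the 8 genes correlated with r of 0.81 to 0.98 over all 30 libraries (median 0.94 of 28 pairs), where depot and cold move all of them. Within iWAT groups r was 0.57 to 0.95 (median 0.72) and within BAT groups -0.29 to 0.66 (median 0.32).

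By Pearson r of log2 CPM over the 30 libraries, among 11910 genes with a mean of 1 CPM or more, the genes most like the mean of the 8 were Slc16a1, a monocarboxylate transporter, and Kcnk3, a potassium channel (0.993 each), then Ciapin1 and Tmem37 (0.991 each), Wdr73 and Pgk1 (0.990 each), Gfm1 (0.989), Slc25a51 (0.988), and St3gal5 and Prelid3b (0.987 each). Ucp1 had 0.929. The genes closest to single members were Slc25a34, a mitochondrial carrier, for Sgk2 (0.981), Slc16a1 for Kng2 (0.989), Hccs, the cytochrome c haem lyase, for Cend1 (0.991), and Tmem37 for Slco4a1 (0.979). For Fam131c it was Phospho1, a phosphocholine phosphatase (0.976), for Mfsd2a the proteoglycan Sdc4 (0.989), for Ankrd9 Isca1, an iron-sulphur cluster assembly protein (0.986), and for Car14 Rnf152 (0.987). These values share the depot difference and the cold response and are a description.

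Genes with roles next to those of the 8 were counted in the same fits, in which 12.8% of all genes were called higher and 10.1% lower in iWAT at 24 h, and 12.8% higher and 10.4% lower in BAT at 24 h. Of 7 genes around the Sgk kinases, 4 rose in iWAT at 24 h and none fell (median log2 0.34): the paralog Sgk1 (0.77 ± 0.15, adjusted p = 0.0027 by edgeR), the ubiquitin ligase Nedd4l, a target of Sgk kinases (0.48 ± 0.17), the activating kinase Pdpk1 (0.47 ± 0.11) and Mapkap1, a subunit of mTORC2 (0.34 ± 0.08). In BAT at 24 h, 2 rose (Pdpk1, 0.5 ± 0.09, and Mapkap1, 0.24 ± 0.06) and 2 fell (the paralog Sgk3, -0.41 ± 0.08, and Nedd4l, -0.29 ± 0.1), and Sgk1 was at 0.26 ± 0.13 (adjusted p = 0.18).

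Of 13 genes of the kinin system, 8 were tested in iWAT, where 2 rose and 3 fell at 24 h. Cpn2, a subunit of the kinin-cleaving carboxypeptidase N, rose (1.34 ± 0.39), and plasma kallikrein, Klkb1, which frees bradykinin from kininogen, fell (-2.16 ± 0.63). The kinin-degrading peptidases Xpnpep2 (-1.27 ± 0.39) and Ace (-1.07 ± 0.34) fell as well. In BAT at 24 h, 1 of 6 tested rose (Cpn2, 0.38 ± 0.11) and none fell. No other organic anion transporter of 11 listed rose in iWAT: of 3 tested, Slco2b1 fell (-0.89 ± 0.14), and in BAT, of 5 tested, Slco1a1 rose (1.66 ± 0.39) and Slco3a1 fell (-0.61 ± 0.18).

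Of 16 genes of lysophospholipid handling, 4 rose and 2 fell in iWAT at 24 h, among them Gde1 (0.74 ± 0.14), a glycerophosphodiesterase, and the acyltransferases Lpcat1 (-0.64 ± 0.14) and Mboat2 (-1.26 ± 0.37). In BAT at 24 h, 3 rose, which were Lpgat1 (0.56 ± 0.1), Gde1 (0.34 ± 0.07) and the lysosomal transporter Spns1 (0.32 ± 0.09), and Enpp2, which makes lysophosphatidic acid, fell (-0.88 ± 0.1). Of 9 genes around Ankrd9, 3 rose and 1 fell in iWAT, and those that rose were the ligase subunits Rbx1 (0.38 ± 0.09), Cul2 (0.37 ± 0.08) and Cul5 (0.31 ± 0.08). In BAT 4 rose, and the 1 that fell was Impdh1 (-0.69 ± 0.12), which encodes a form of IMPDH. Of 11 other carbonic anhydrases tested in iWAT, 3 rose (Car13, 1.08 ± 0.16, Car2, 1.07 ± 0.22, and the mitochondrial Car5b, 0.6 ± 0.13) and Car7 fell (-0.8 ± 0.2), while in BAT 1 of 9 fell (Car3, -1.65 ± 0.28) and none rose. Of 3 Cend1 partners, Ranbp9 rose (0.63 ± 0.1) and cyclin D1, Ccnd1, fell (-0.88 ± 0.31) in iWAT, and Ranbp9 rose in BAT (0.31 ± 0.06). The median log2 change of all genes tested was -0.04 in iWAT and -0.01 in BAT at 24 h. Among the 24 genes of brown and beige fat, 20 rose in iWAT at 24 h (median 1.99) and 12 in BAT (median 0.31), with Elovl3, which elongates very long fatty acids, at 4.08 ± 0.88 in iWAT and 2.17 ± 0.18 in BAT.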

How the data were processed

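The authors deposited whole-number counts per gene, with no scaling, and FPKM, in tables of 30 libraries (6 groups of 5). The deposited FPKM equalled the counts divided by gene length and by the table's total. HISAT2, HTSeq and GRCm39 are named in the submitters' processing notes. Their versions and settings, and whether reads were counted by strand, are not given in the sources used here.

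Counts were tested in R 4.3.3 with edgeR 4.0.16 (TMM factors, filterByExpr with a minimum count of 10, quasi-likelihood F test, Benjamini-Hochberg adjustment over all genes tested, calls at an adjusted p under 0.05). The 3 groups of a depot shared a fit of 15 libraries, and depots were compared in a fit of all 30. Approximate standard errors are the log2 value over the root of F. CPM used TMM factors over the 30 libraries, and errors of CPM, FPKM and shares are SD over 5 libraries. Shares are iWAT libraries over the BAT mean. Coupling to Ucp1 was its log2 CPM as a covariate beside group. Correlations of deviations from group means used log2(CPM + 0.1) with 100000 permutations within groups, two-sided. Alternatives were DESeq2 1.42.0, limma 3.58.1 on log2 FPKM, other scaling factors and filters, a fit of all 30 libraries, the replicate number as a block and leaving out each library. The calling was also run on simulated data, and its outcome is not given here. The genes and lists were chosen with earlier results of these data known. All 8 genes, Ucp1 and, of each list, up to 4 of the largest called changes at 24 h in iWAT or BAT are named. Promoter sequences are RefSeq's. Within groups, 60 pairs of libraries differed by a chi-square of 12.4 to 158 per degree of freedom, beyond counting noise.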

Additional observations from a re-analysis of the deposited data

Results flagged for a closer look

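Of 54 groups of 5 libraries (8 genes and Ucp1 in 6 groups), 5 held 1 library set apart from the nearest other by a share of the group's range above Dixon's critical value of 0.71. Chance alone does so in about 1 in 20 groups if values are normally distributed. For CPM, some of them near 0, the rate is not known. Fam131c stood at 0.163 CPM in iWAT 22 °C library 3, from 8 reads, with the nearest other at 0.0284 CPM. Fam131c stood at 3.72 CPM in iWAT 24 h library 5, with the nearest other at 1.8 CPM. Mfsd2a stood at 16.6 CPM in iWAT 6 h library 5, with the nearest other at 5.66 CPM, and that library also held the most Ucp1 of its group. Car14 stood at 0.942 CPM in iWAT 22 °C library 2, with the nearest other at 0.244 CPM, in the library with 3600 CPM of summed muscle transcripts. Ankrd9 stood at 133 CPM in BAT 24 h library 1, with the nearest other at 97.1 CPM.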

How the results depend on the processing

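Of 2122 recomputed values, 1964 were labelled unchanged, and none of those called changed sign. The label did not require both a kept call and a kept size. The uncalled iWAT slope of Car14 on Ucp1 was 0.54, and 0.07 to 0.93 in other settings counted as unchanged. Uncalled values could also change sign under it. The difference of Car14 in iWAT between 24 h and 6 h, -0.38, was -0.65 to 0.17 with 1 library left out. The number of BAT genes whose slope on Ucp1 was called, 1, was 0 with the replicate block, both FPKM fits, RLE factors, upper-quartile factors, a filter of 1 CPM in 5 libraries or no filter, and 0 to 1171 with 1 library left out (1171 without 22 °C library 4), where members called were 0 to 1. In iWAT, 118 genes were called on Ucp1, 39 with the replicate block, 67 and 75 on log2(FPKM + 1) and log2(FPKM + 0.1), 239 in cold libraries alone and 41 to 232 with 1 library left out. Members called there numbered 4, but 0 and 2 on these FPKM scales, 7 in cold libraries alone and 3 to 5 with 1 library left out. For iWAT at 24 h against 6 h, 1 gene was called, but 0 with the replicate block, 56 with all 30 libraries in the fit, 5 and 0 on the FPKM scales, 122 by DESeq2 and 0 to 13 with 1 library left out. Of the members there, 1 was called higher with all 30 libraries and on log2(FPKM + 1). All 30 libraries in the fit left 3 of 6 members called in BAT at 6 h and 0 of 1 lower in BAT at 24 h against 6 h. In iWAT at 6 h, 3148 genes were called, 4899 and 4783 on the FPKM scales and 1525 to 4032 with 1 library left out (1525 without 22 °C library 1, 1585 without 22 °C library 2 and 1913 without 6 h library 5). At 24 h the range was 2053 to 3646 around 3145 (2053 without 22 °C library 1). The median share of 26.0% was 34.9% on FPKM and 23.4 to 27.5% with 1 library left out. The cause of these shifts was not tested.

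Libraries share replicate numbers across groups, but no pair of groups had all same-numbered deviations correlated above 0.1, so the numbers were not taken as pairs. Between iWAT and BAT at 24 h, r was 0.08 to 0.34 and 5 of 5 libraries correlated best with their own number. The labels do not say whether equal numbers are the same mouse, so a pairing of the depots at 24 h stays possible. The main fit of all 30 libraries treated the depots as independent. With the replicate block, the Ucp1 slope of Cend1 in iWAT missed the threshold (0.58, adjusted p = 0.0666 by edgeR). Ankrd9 at 6 h (0.44, adjusted p = 0.013) and Car14 at 24 h (0.41, adjusted p = 0.0361) passed in BAT.

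At 22 °C in iWAT the totals over 5 libraries were 9 counts for Fam131c, 22 for Slco4a1, 26 for Sgk2 and 40 for Cend1. On log2(FPKM + 1) their log2 differences at 24 h were 1.33, 0.9, 2.37 and 1.96. Kng2 (97 counts) and Mfsd2a (122) were likewise smaller there, at 2.26 and 1.34.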
